A study of Mus musculus with 14 samples.

Results

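Multipotent progenitors (MPPs) and myeloid progenitors of mouse bone marrow that had lost Dnmt1 were compared with each other, to see which differences between the populations were present without this enzyme. The comparison uses the 5 arrays of these populations from Cre+ mice among the 14 arrays of the series, 2 of MPPs and 3 of myeloid progenitors, which were picked by their labels and by no measured value. Of 12393 genes with a probe set of their own, 8612 were bright enough to be tested. All mice carried floxed Dnmt1 alleles (Dnmt1fl/fl) on a C57BL/6 background and were 8 to 12 weeks old. Poly(I)poly(C), 25 ug/kg per dose, was given to mice of both genotypes in 7 doses, 1 on every other day. The marrow was harvested 4 days later. The knockout mice also carried Mx-Cre, a transgene in which an interferon-inducible promoter, also active outside blood cells, drives the Cre recombinase. Control littermates lacked that transgene. Marrow of 4 to 6 mice of 1 genotype was pooled for each array, so errors describe pools and not single mice. After depletion of cells with mature lineage markers, MPPs were sorted as c-Kit+ Sca-1+ CD34+ cells and myeloid progenitors as c-Kit+ Sca-1- cells.

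Dnmt1 copies DNA methylation onto the new strand after replication, and its loss thins methylation as cells divide. MPPs can still give rise to all blood lineages and carry low levels of stem cell, lymphoid and myeloid transcripts side by side. The c-Kit+ Sca-1- gate holds the progenitors of granulocytes, monocytes, red cells and platelets, which start the transcription of granule proteins, receptors and enzymes of 1 lineage and shut down stem cell genes. Poly(I)poly(C) imitates viral RNA and calls out interferon.

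The MPP knockout arrays were unlike each other. Over all probe sets MPP knockout array 1 correlated with array 2 at r = 0.960, and with the myeloid progenitor knockout arrays at 0.950 to 0.957. MPP knockout array 2 correlated with the myeloid progenitor knockout arrays at 0.982 to 0.990, beside 0.985 to 0.989 among these myeloid arrays. Control MPP array 2 correlated with the control myeloid progenitor arrays at 0.967 to 0.988, and control MPP array 1 at 0.939 to 0.943. The purity of the sorts was not tested. Median intensities of the 5 arrays lay between 41.1 and 46.9. The ratio of 3' to 5' Gapdh probes, a measure of RNA length, was 2.33 to 2.66 on 4 of these arrays and 4.35 on myeloid progenitor knockout array 2. Dnmt1 gave 1141 and 745 units of intensity on the knockout MPP arrays and 1055, 1084 and 1193 on the knockout myeloid progenitor arrays, below all 5 control arrays of these populations (1328 to 2156). The signal left does not tell how much of the transcript lacked the floxed part, since the position of the probes was not examined.

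Differences are given as myeloid progenitors minus MPPs in log2(intensity + 16), and each ± is the standard error (SE) from a limma fit to all 14 arrays (n = 3 and n = 2 for the knockout comparison). No gene passed an adjusted p of 0.05 in the knockout comparison (0 of 8612, 0.0%), while 484 genes (5.62%) had an unadjusted p under 0.05. Of these, 255 (2.96%) were higher in myeloid progenitors and 229 (2.66%) lower. Without MPP knockout array 1 the numbers were 58 higher (0.673%) and 54 lower (0.627%), and without array 2 they were 657 (7.63%) and 677 (7.86%). Arrays of the populations did not overlap for 1132 genes higher in myeloid progenitors (13.1%) and 1027 lower (11.9%). The count of 484 rested on the MPP arrays, since it was 112 without array 1, 1334 without array 2, and 303, 318 and 334 without each myeloid array in turn. The median SE of a gene was 0.32. The genes below are therefore described by their values, and none of them is called changed unless a setting that calls it is named.

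The 6 genes nearest to the threshold in the lower direction were Cd74, H2-Aa, Tnfrsf18, Slc16a11, Thy1 and Hlf. Thy1 encodes a surface antigen that is used to sort stem cells, and it gave 144 and 116 units in knockout MPPs against 23.0, 26.2 and 32.0 in knockout myeloid progenitors. Tnfrsf18, a receptor of the TNF family known from regulatory T cells, gave 308 and 297 against 73.7, 86.0 and 139. Slc16a11, a monocarboxylate transporter, gave 151 and 48.1 against 3.40, 9.27 and 2.72. For all 3 genes the knockout populations were apart on every array, and Thy1 and Tnfrsf18 also had closely matching MPP arrays. Their differences were -1.74 ± 0.39, -1.52 ± 0.33 and -2.28 ± 0.50, each with an adjusted p of 0.487 (limma, Benjamini-Hochberg). The size for Slc16a11 depends on the constant added before the logarithm, because the myeloid signal was at the floor of the array. It was -3.87 with 1 added and -1.17 with 64.

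The 6 genes nearest to the threshold in the higher direction were Kcnip3, Pklr, Mgst1, Tlcd4, Abcd2 and F10. Pklr encodes the pyruvate kinase of red cells and liver, and its intensity was 26.5 and 15.2 in knockout MPPs and 155, 171 and 162 in knockout myeloid progenitors. Mgst1, a microsomal glutathione transferase, gave 28.9 and 53.8 against 210.2, 141 and 182. Kcnip3, a calcium-binding protein that also acts on transcription, gave 23.6 and 28.6 against 97.0, 92.2 and 126. These 3 genes had higher values on every myeloid progenitor array than on either MPP array. Their differences were 2.35 ± 0.43 for Pklr, 1.85 ± 0.36 for Mgst1 and 1.59 ± 0.28 for Kcnip3, with adjusted p of 0.229, 0.330 and 0.221 (limma). Abcd2, a peroxisomal transporter of fatty acids, differed by 1.51 ± 0.33, and F10, which encodes coagulation factor X, by 1.30 ± 0.30. Tlcd4 differed by 1.74 ± 0.35, a value that was 3.01 with 1 added before the logarithm and 0.81 with 64. Pklr passed the threshold in 2 other fits, one with the 5 knockout arrays alone and one without the LT-HSC arrays. Other probe sets of Pklr, which these fits did not use, gave smaller knockout differences of 1.26 and 1.41.

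**Figure D1:**
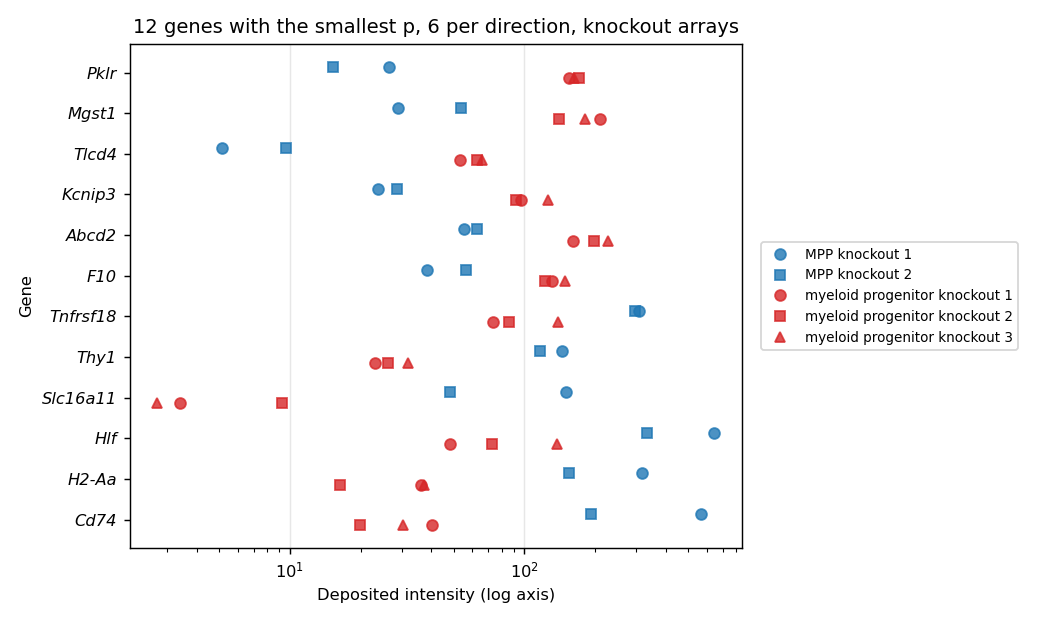
Deposited intensity (log axis) of the 12 genes with the smallest p, 6 in each direction, on the 2 MPP and 3 myeloid progenitor knockout arrays, 1 point per array. For all 12 genes the points of the populations do not overlap; Pklr runs from 15.2 to 26.5 in MPPs and from 155 to 171 in myeloid progenitors.

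Cd74 had the smallest p of all genes in the knockout comparison. It encodes the invariant chain, which guides MHC class II molecules through the cell and blocks their groove until they meet peptide. Its intensity was 567 and 192 on the knockout MPP arrays and 40.5, 19.9 and 30.2 on the knockout myeloid progenitor arrays. Every myeloid value thus lay far below both MPP values. The difference was -2.91 ± 0.42, with an adjusted p of 0.0708 (limma). With the littermate pairs as a random block the adjusted p was 0.0474, and without MPP knockout array 2 it was 0.00477, so the call turns on these choices. Without MPP knockout array 1 the difference was -2.17 and the adjusted p 1.00. The control arrays, which share no array with the knockout comparison, gave 312 and 203 in MPPs against 36.9, 32.4 and 13.4, a difference of -2.60 ± 0.42 with an adjusted p of 0.0327.

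The chains of the classical class II molecules, which display peptides from taken-up proteins to helper T cells, had the same pattern. H2-Aa, an alpha chain, gave 317 and 154 units in knockout MPPs and 36.2, 16.3 and 37.4 in knockout myeloid progenitors. The beta chain H2-Ab1 gave 867 and 438 against 186, 223 and 176. The other beta chain, H2-Eb1, gave 111 and 79.8 against 18.3, 9.81 and 16.4. All 3 genes were lower on every knockout myeloid array, with differences of -2.38 ± 0.42, -1.56 ± 0.43 and -1.81 ± 0.45. The control differences of these genes were -2.42, -1.75 and -1.42. The probe sets of H2-Aa and H2-Ab1 are of kinds that can also bind related transcripts. Of 13 measured genes of the class II list, 4 were lower and 0 higher at an unadjusted p under 0.05. Over all genes, 2.66% were lower and 2.96% higher at that p. Without MPP knockout array 1 H2-Aa, H2-Ab1 and H2-Eb1 differed by -1.90, -1.10 and -1.57, and without array 2 by -2.87, -2.03 and -2.04. The count of lower genes was smaller without array 1. The median difference of the class II list was -0.51, beside 0.01 over all genes tested. The median was -0.78 against MPP knockout array 1 alone and -0.24 against array 2 alone. Because RNA was taken from sorted bulk cells, fewer cells with these transcripts and less transcript per cell cannot be told apart here or in any result below. Class II genes are also abundant in dendritic cells, whose 11 measured list genes summed to 4408 and 3938 in knockout MPPs against 4019, 3293 and 4532. Among them Itgax gave 99.6 and 32.6 against 42.2, 13.2 and 24.4, while Cd209a, which was too dim to be tested, stayed under 4 units. The part of such cells was not tested.

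Promoters are shown for the class II genes because a factor complex acts on short boxes that these genes share. The lines give the 120 bases before the RefSeq transcription start (GRCm38.p6), 5' to 3' on the strand of the gene. For H2-Aa this is chr17:34287824-34287943 on the minus strand, and for H2-Eb1 it is chr17:34305747-34305866 on the plus strand. Capitals mark matches to the Y box, searched as CTGATTGG on both strands, and to a pattern of the X box with some bases left free, searched on both strands, which matched as CTAGCAACTGATG in H2-Eb1.
H2-Aa: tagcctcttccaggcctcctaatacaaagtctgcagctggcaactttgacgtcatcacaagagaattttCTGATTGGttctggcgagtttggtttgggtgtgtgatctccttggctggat
H2-Eb1: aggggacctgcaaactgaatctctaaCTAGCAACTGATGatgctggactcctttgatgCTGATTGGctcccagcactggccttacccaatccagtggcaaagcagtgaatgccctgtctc
The Y box began 51 bases before the start in H2-Aa and 62 bases before it in H2-Eb1, where the X box pattern began at 94. Among the 250 bases before the start of 32851 promoters, 3.83% held the Y box letters and 0.0548% the X box pattern. Of the 9 class II list genes with a promoter in the table, 3 held the Y box (H2-Aa, H2-Eb1 and H2-Oa) and 1 the X box pattern. The list counts genes, while the shares count promoters (32851 for 27025 genes). Such a match describes the letters and does not show binding.

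Stem cell genes made up the list with the lowest median in the knockout comparison. Of its 28 measured members, 26 had a negative difference. An unadjusted p under 0.05 was found for 10, all lower in myeloid progenitors, beside 2.66% of all genes lower. Between the populations 14 did not overlap, beside 11.9% of all genes lower without overlap. The median difference was -0.73 in the knockout and -0.81 in the control. Hlf, a transcription factor of stem cells, gave 646 and 332 in knockout MPPs and 48.3, 72.5 and 138 in knockout myeloid progenitors, a difference of -2.32 ± 0.53. Procr, the protein C receptor of stem cells, gave 407 and 94.5 against 21.4, 28.2 and 29.0, a difference of -2.32 ± 0.62. The control differences were -2.83 for Hlf and -2.67 for Procr. Esam, an adhesion molecule of stem cells and endothelium, gave 103 and 21.7 against 1.93, 1.47 and 1.00, which lies at the floor of the array. Gata2, a factor of stem cells and of mast cells, was higher on both knockout MPP arrays (704 and 994) than on the myeloid arrays (246, 306 and 362).

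Some members of the stem cell list had larger differences in the knockout than in the control. Vwf, which encodes von Willebrand factor, differed by -1.52 ± 0.47 in the knockout and by -0.60 ± 0.47 in the control. Slamf1, which encodes CD150, a sorting antigen of stem cells, gave 103 and 55.7 in knockout MPPs against 15.8, 24.7 and 13.1. In the control it gave 36.5 and 22.3 against 22.7, 13.7 and 14.2, so these populations overlapped. The test of the difference between genotypes gave -0.92 for Vwf and -1.05 for Slamf1, neither of which passed the threshold. Sox4 went the other way, with -0.30 in the knockout and -1.31 in the control (1.01), and did not pass either. It was the only list member at an unadjusted p under 0.05 in that test. Over the list the values of that test had a median of 0.18, and 13 of 28 were negative. The list median of the knockout difference was -0.97 against MPP knockout array 1 alone and -0.30 against array 2 alone, so array 1 lay further from myeloid progenitors. Without array 1 the differences of Hlf and Procr were -1.88 and -1.35, and without array 2 they were -2.77 and -3.29. The count of 10 lower genes was smaller without array 1.

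Genes of the Hox clusters and their partners are known to keep stem cells self-renewing. All 11 measured members had a negative difference in both genotypes. In the knockout 5 of them did not overlap, and 1, Hoxb5, had an unadjusted p under 0.05. Over all genes, 11.9% were lower without overlap and 2.66% were lower at that p. Hoxb5 gave 72.5 and 38.2 in knockout MPPs and 9.60, 13.9 and 19.7 in knockout myeloid progenitors. Hoxa9 gave 1035 and 614 against 488, 733 and 501, which overlapped. The list medians were -0.52 in the knockout and -0.89 in the control, and the former was -0.71 against MPP knockout array 1 alone and -0.14 against array 2 alone. Hoxb5 differed by -0.78 without array 1 and by -1.54 without array 2. Meis1, a Hox partner, differed by -0.68 ± 0.36. Among 24 adhesion and niche retention genes, 3 were lower at an unadjusted p under 0.05, beside 2.66% of all genes. They were Itgb7 (-1.09 ± 0.33), Esam and Itga4 (-0.78 ± 0.33), both Itgb7 and Itga4 being integrin chains. In that order the differences were -0.79, -1.09 and -0.61 against MPP knockout array 2 alone. Against array 1 alone they were -1.40, -2.80 and -0.95. The count of 3 lower genes was smaller without either array. The median of the adhesion list was -0.13 against array 1 alone and -0.17 against array 2 alone. The transcripts of the sort antigens themselves, where measured, did not separate the knockout populations. Kit gave 524 and 295 in MPPs and 377, 377 and 309.9 in myeloid progenitors, and Cd34 gave 615 and 310.2 against 443, 268 and 346.

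Lymphoid priming genes had a median below 0 against MPP knockout array 1 and above 0 against array 2. Dntt, the terminal transferase of early lymphoid cells, gave 1671 on MPP knockout array 1 and 204 on array 2, against 184, 78.2 and 128 in myeloid progenitors. Flt3, the cytokine receptor that marks MPPs with lymphoid potential, gave 308 and 112 against 69.4, 39.9 and 77.6. Both genes were higher on each MPP array than on any myeloid array, with array 2 close to the myeloid level. Bcl11a, a factor needed for lymphoid development, gave 704 and 425 against 211, 263 and 256, a difference of -1.10 ± 0.34. Another probe set of Bcl11a gave a smaller difference of -0.48. Of 22 measured lymphoid priming genes, these 3 were lower at an unadjusted p under 0.05 and 0 were higher, beside 2.66% and 2.96% of all genes. Their median was -0.33, and it was -1.02 against MPP knockout array 1 alone and 0.13 against array 2 alone. With array 1 alone 10 genes were lower at that p, and with array 2 alone 2 were higher and 0 lower, beside 7.86% of all genes lower in the former case and 0.673% higher in the latter.

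Genes of B cells were far apart on the MPP knockout arrays. Summed over 23 measured genes, MPP knockout array 1 gave 5406 units, array 2 gave 766, and the myeloid progenitor arrays gave 1998, 1531 and 1002. Vpreb1, the surrogate light chain of pro-B cells, gave 1846 on MPP knockout array 1, 41.5 on array 2 and 687, 685 and 221 in myeloid progenitors. Array 1 was therefore the highest and array 2 the lowest of the 5. Among B cell genes 1, Dntt, was lower at an unadjusted p under 0.05 (4.35%), beside 2.66% of all genes. The list median was -0.23, or -0.82 against MPP knockout array 1 alone and 0.26 against array 2 alone. Control MPP arrays gave sums of 4941 and 1685. Igkv8-30, an immunoglobulin light chain segment, gave 619 and 141 in knockout MPPs against 62.8, 37.3 and 15.96, a difference of -2.57 ± 0.75. T and NK cell genes gave sums of 2772 and 2548 in knockout MPPs against 2011, 1485 and 1972. Cd3d, which defines T cells, stayed under 10 units on all 5 knockout arrays. Cd3e, another chain of the T cell receptor complex, lay between 16.6 and 21.7 units, and the NK cell receptor gene Klrd1 was highest on MPP knockout array 2, at 32.6. Among 24 T and NK cell genes 3 were lower at an unadjusted p under 0.05, beside 2.66% of all genes. They were Thy1, Cd27 and Tbx21. The part of such cells in the results above was not tested.

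Megakaryocyte and platelet genes had a median below 0, and the myeloid gate is known to hold progenitors of that lineage. Of 16 measured genes, 15 had a negative difference. At an unadjusted p under 0.05, 5 were lower, beside 2.66% of all genes, and 9 did not overlap, beside 11.9% of all genes in that direction. The median was -0.44 in the knockout and -0.45 in the control, and it was -0.29 against MPP knockout array 1 alone and -0.44 against array 2 alone. Pf4, the chemokine platelet factor 4, gave 792 and 99.2 in knockout MPPs against 35.3, 59.1 and 40.5. Selp, the platelet and endothelial adhesion molecule P-selectin, gave 122 and 30.9 against 17.7, 13.9 and 18.3. For both genes MPP knockout array 1 carried most of the difference. Without it Pf4 differed by -0.91 and Selp by -0.45, against -3.70 and -2.07 without array 2. The count of 5 lower genes was smaller without array 1. Mylk, a myosin light chain kinase, gave 138 and 65.0 against 33.2, 23.7 and 39.8, a difference of -1.20 ± 0.39.

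**Figure D2:**
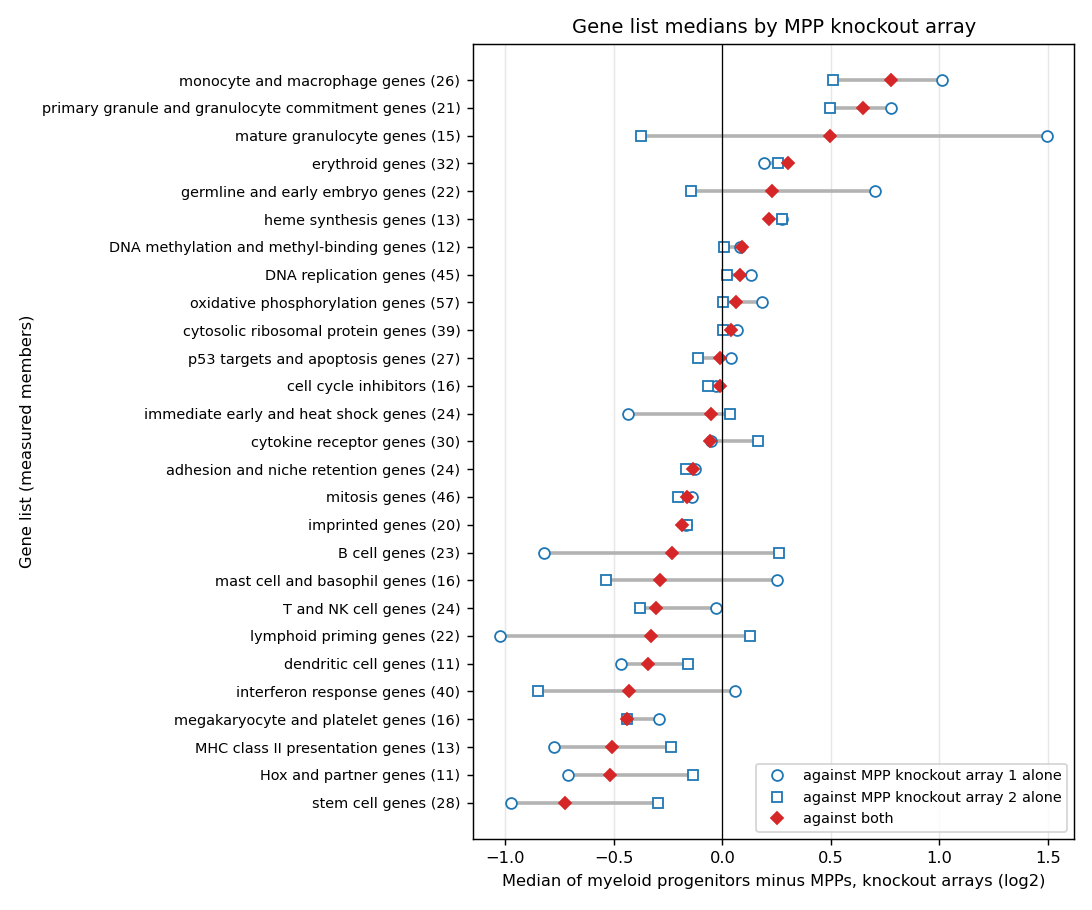
Median difference of each gene list, myeloid progenitors minus MPPs on the log2 scale, with measured members in brackets; diamonds use both MPP knockout arrays, circles array 1 alone and squares array 2 alone. Stem cell genes run from -0.97 to -0.30 and monocyte genes from 0.51 to 1.01, while lymphoid priming, B cell, mature granulocyte and interferon genes lie on both sides of 0.

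Granule and granulocyte commitment genes were on the other side. All 21 measured members had a positive difference in the knockout, 15 did not overlap between the populations and 7 had an unadjusted p under 0.05. Over all genes, 13.1% did not overlap in that direction and 2.96% were higher at that p. The list median was 0.65 in the knockout and 0.96 in the control. The former was 0.78 against MPP knockout array 1 alone and 0.50 against array 2 alone. Slpi, a secreted inhibitor of granule proteases, gave 140.5 and 224 in knockout MPPs and 1139, 827 and 1130.3 in knockout myeloid progenitors. Elane, neutrophil elastase, gave 471 and 1519 against 2614, 1898 and 3194. Trem3, a receptor of myeloid cells, gave 76.3 and 184 against 288, 370.0 and 578. Each of these genes was higher on all myeloid arrays than on either MPP array, and MPP knockout array 2 was the nearer one. The differences were 2.38 ± 0.55 for Slpi, 1.55 ± 0.60 for Elane and 1.61 ± 0.52 for Trem3. With the 5 knockout arrays fitted alone, Slpi passed the threshold with an adjusted p of 0.0169 (limma), together with Ctla2a, Muc13 and Pklr. Mpo, myeloperoxidase, was already near its myeloid level in knockout MPPs, with 4453 and 4950.3 against 5921, 5596 and 6755, and differed by 0.39 ± 0.46.

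Monocyte and macrophage genes had the highest list median. Of 26 measured members, 20 had a positive difference, 11 of them at an unadjusted p under 0.05 and none in the other direction. Over all genes, 2.96% were higher and 2.66% lower at that p. The median was 0.78 in the knockout and 0.70 in the control, and stayed positive against either MPP knockout array (1.01 and 0.51). The count of 11 higher genes was smaller without MPP knockout array 1. Csf1r, the receptor for the growth factor of macrophages, gave 90.2 and 197 in knockout MPPs and 646, 796 and 504 in knockout myeloid progenitors. Irf8, a transcription factor that directs monocyte fate, gave 191 and 153 against 739, 525 and 511. Ly86, a partner of a Toll-like receptor homologue on B cells and myeloid cells, gave 59.8 and 123 against 439, 413 and 416. These 3 genes were apart in the knockout, whereas in the control Irf8 overlapped (155 and 576 in MPPs, 1086, 1141 and 575 in myeloid progenitors), as did Ly86 after normalization. The knockout differences were 2.12 ± 0.70, 1.68 ± 0.60 and 2.13 ± 0.66, and the control differences 2.00, 1.49 and 1.84. In the same order the knockout differences were 1.63, 1.83 and 1.69 without MPP knockout array 1. They were 2.61, 1.53 and 2.58 without array 2. Klf4, a factor of monocyte differentiation, differed by 1.48 ± 0.56, and the Fc receptor genes Fcer1g and Fcgr3 by 1.07 ± 0.35 and 1.29 ± 0.45.

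Erythroid genes had a smaller median difference in the knockout than granule or monocyte genes. Of 32 measured erythroid genes, 6 were higher and 1 lower at an unadjusted p under 0.05 in the knockout, with 18 positive and 14 negative differences and a median of 0.30. Over all genes, 2.96% were higher and 2.66% lower at that p. The erythroid median was 0.19 against MPP knockout array 1 alone and 0.26 against array 2 alone. In the control, 17 erythroid genes were higher and 0 lower, beside 4.73% of all genes higher in the control at that p. Their median there was 0.89. Rhd, a subunit of the Rhesus antigen, gave 12.4 and 21.1 in knockout MPPs against 82.2, 109 and 55.6. Cldn13, a claudin of erythroid progenitors, gave 9.47 and 21.5 against 68.9, 62.7 and 58.8. The populations were apart on every array, by 1.65 ± 0.47 for Rhd (control 1.66) and 1.44 ± 0.41 for Cldn13 (control 1.76). Slc4a1, the anion exchanger of the red cell membrane, was lower in knockout myeloid progenitors, with 176 and 193 against 81.5, 105 and 102. Among 13 heme synthesis genes 2 were higher at an unadjusted p under 0.05, Alas1 (1.44 ± 0.53) and Cpox (0.89 ± 0.32), the former encoding the first enzyme of the pathway outside red cells.

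The erythroid genes with narrower differences had high values in knockout MPPs. Car1, carbonic anhydrase of early red cells, gave 436 and 565 in knockout MPPs and 1492, 1408 and 1146 in knockout myeloid progenitors. On the control arrays it gave 41.1 and 146 in MPPs and 1242, 993 and 1528 in myeloid progenitors. The myeloid ranges of the genotypes thus overlapped, while both knockout MPP values lay above both control MPP values. Ermap, an erythroid membrane protein that carries a blood group, gave 657 and 478 in knockout MPPs against 69.0 and 176 in control MPPs. Mt2, a metallothionein that was placed in the erythroid list and also answers to metals and stress, gave 335 and 263 against 39.5 and 48.3. In myeloid progenitors Ermap gave 1112, 1179.8 and 1053 in the knockout and 1092, 1308 and 1654 in the control, so the myeloid arrays were alike in range. Erythroid list sums were 14099 and 13278 in knockout MPPs, 11910.1 and 8259 in control MPPs, 14429 to 16157 in knockout and 12707 to 16469.9 in control myeloid progenitors.

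The difference between the genotypes' population differences was tested as an interaction, knockout minus control. Car1 differed by 1.38 ± 0.46 in the knockout and by 3.72 ± 0.46 in the control, an interaction of -2.33 with a 95% interval from -3.75 to -0.92. Ermap differed by 0.96 ± 0.45 and 3.39 ± 0.45, an interaction of -2.43 (interval -3.79 to -1.06). For Mt2 the values were 0.85 ± 0.33 and 2.86 ± 0.33, and the interaction was -2.005 (interval -3.02 to -0.99). None of these passed adjustment over all genes, and the smallest adjusted p of Car1 over all settings was 0.600, with the littermate pairs as fixed blocks (limma). These 3 genes passed in the control and were also among the 6 genes with the smallest interaction p. The first choice favours a large control difference and the second a large interaction. Over the erythroid list 28 of 32 interactions were negative, 6 of them at an unadjusted p under 0.05, beside 0.325% of all genes. The 6 were Car1, Ermap, Mt2, Epor, Klf1 and Tspan33. With the littermate pairs as a fixed block 7 erythroid genes were at that p, beside 1.38% of all genes. The median interaction was -0.50 over the erythroid list and -0.008 over all genes. Members of the list were chosen with earlier results of these data known, so these counts are not separate support. Epor, the erythropoietin receptor, gave 232 and 133 in knockout MPPs and 142, 198 and 104 in knockout myeloid progenitors, against 30.9 and 35.4 and then 63.8, 160.2 and 165 in the control.

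**Figure D3:**
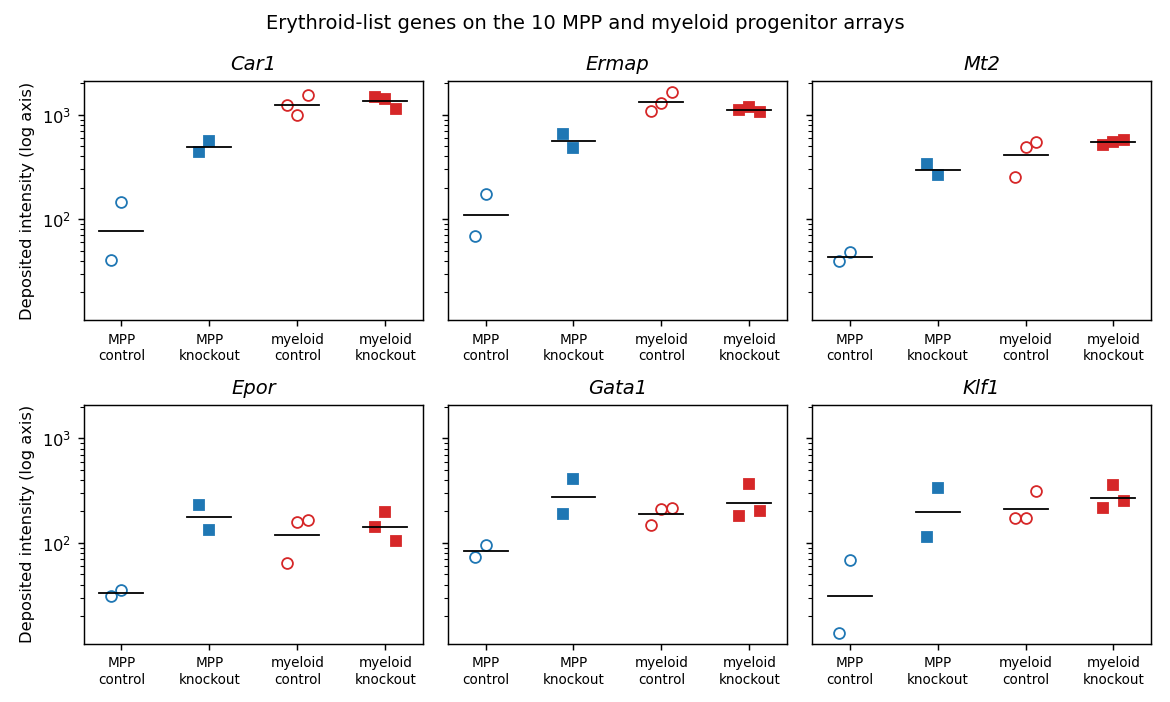
Deposited intensity (log axis) of 6 genes of the erythroid list on the 10 MPP and myeloid progenitor arrays, 1 point per array, open for control and filled for knockout, with bars at group means of the log values. Knockout MPPs lie above control MPPs for each gene shown, for example 436 and 565 against 41.1 and 146 for Car1, and the myeloid groups overlap.

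Promoters of erythroid genes are shown since the erythroid factor GATA1 reads a short motif, searched here as AGATAA or TGATAA on both strands. The 120 bases before the RefSeq start (GRCm38.p6) are given for Pklr, which stayed wide apart in the knockout, and for Ermap and Epor, which did not. They lie at chr3:89136022-89136141 (plus strand, the upstream of 2 starts), chr4:119189996-119190115 (minus strand) and chr9:21963577-21963696 (minus strand). Capitals mark the motif.
Pklr: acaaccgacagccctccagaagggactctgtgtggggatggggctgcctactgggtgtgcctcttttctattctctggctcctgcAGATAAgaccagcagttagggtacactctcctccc
Ermap: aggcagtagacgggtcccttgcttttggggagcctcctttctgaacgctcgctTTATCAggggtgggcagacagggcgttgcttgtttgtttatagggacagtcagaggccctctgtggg
Epor: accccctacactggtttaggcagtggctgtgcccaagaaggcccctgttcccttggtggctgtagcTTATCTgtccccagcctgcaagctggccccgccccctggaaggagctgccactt
The motif began 35 bases before the start in Pklr, 67 in Ermap and 54 in Epor. It was found in 16.6% of the 32851 promoters and in 13 of the 23 erythroid list genes with a promoter in the table. The former counts promoters, of which a gene can have several, and the latter genes, so they differ in unit. Genes with narrower and with kept differences both held the motif, and the match says nothing of binding. The downstream start of Pklr had no match in the 250 bases before it. Car1 has no promoter in the table.

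Mature granulocyte, basophil and interferon genes varied between arrays of 1 group more than between populations. The summed intensity of 15 mature granulocyte genes was 1115 and 8271 in knockout MPPs and 3100.3, 1809 and 14903 in knockout myeloid progenitors. S100a9, a calcium-binding protein abundant in neutrophils, gave 184 and 3225 against 818, 261 and 4763. MPP knockout array 2 and myeloid progenitor knockout array 3 were high in both. The list median was 0.50, or 1.50 against MPP array 1 alone and -0.37 against array 2 alone. Among the 15 genes 1, Cybb, the catalytic chain of the phagocyte oxidase, was higher at an unadjusted p under 0.05, beside 2.96% of all genes. Prg2, the major basic protein of eosinophils, gave 852 and 2923 against 454, 298 and 2995, so the same arrays stood out. Of 16 mast cell and basophil genes 2 were lower at an unadjusted p under 0.05, beside 2.66% of all genes. They were Cma1, which was 229 on MPP array 1 and 17.1 on array 2, and Gata2. Interactions of this list were negative for 15 of 16 genes, 1 of them at an unadjusted p under 0.05, or 7 with the littermate pairs as a fixed block. Over all genes, 0.325% had a negative interaction at that p, or 1.38% with the fixed block. The median interaction was -0.99 over the list and -0.008 over all genes. This list, too, was chosen with earlier results of these data known.

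Interferon response genes, which all mice had been made to induce, showed these arrays as well. Over 40 genes the sums were 14398 and 22187 in knockout MPPs and 10196, 10486 and 20439 in knockout myeloid progenitors. In the control the sums were 15832 and 24860.4 against 10571, 8680.2 and 22305, so array 2 of MPPs and array 3 of myeloid progenitors were again the highest. The median difference was -0.43 in the knockout and -0.52 in the control, but 0.06 against MPP knockout array 1 alone and -0.85 against array 2 alone. Iigp1, an interferon-induced GTPase, did not overlap, with 123 and 148 in knockout MPPs against 13.6, 26.2 and 64.5. It was the only one of the 40 genes at an unadjusted p under 0.05. That is 2.5% of the list, near the 2.66% of all genes that were lower at that p. Ifitm1, an interferon-induced membrane protein, gave 1483 and 2082 against 688, 255 and 1226, a difference of -1.49 ± 0.82. The part of other cell types in these differences between arrays was not tested.

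**Figure D4:**
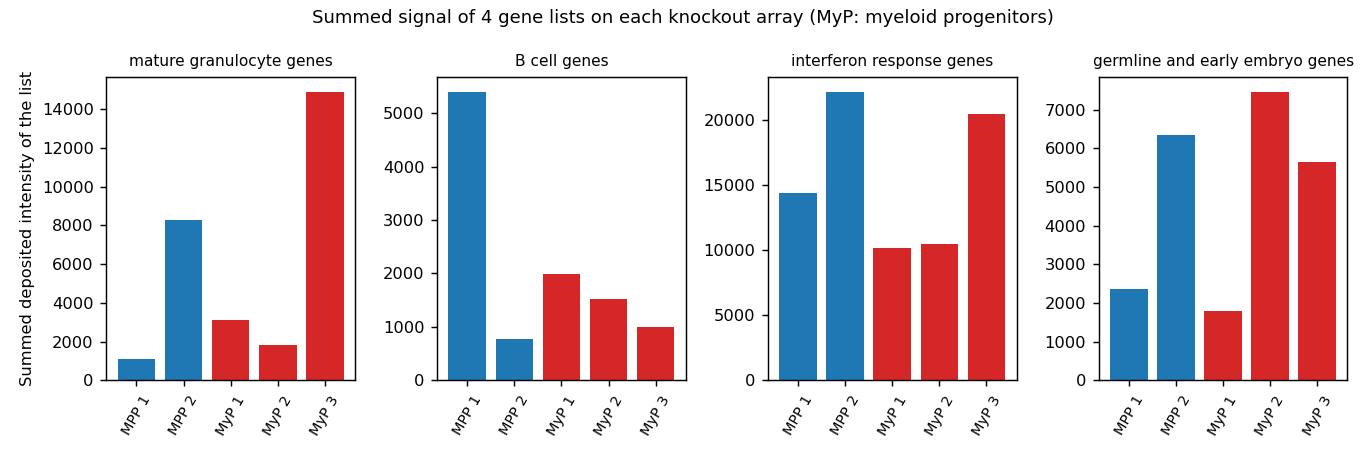
Summed deposited intensity of 4 gene lists on each knockout array, bars from 0, MPPs in blue and myeloid progenitors (MyP) in red. Mature granulocyte and interferon genes are highest on MPP array 2 and myeloid array 3, B cell genes on MPP array 1 (5406 units), and germline genes are low on MPP array 1 and myeloid array 1.

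DNA replication genes (45 measured) had a median of 0.08, beside 0.01 over all genes. Among them 1 gene, cyclin E1 (Ccne1, 0.76 ± 0.29), was higher at an unadjusted p under 0.05, beside 2.96% of all genes. Mitosis genes (46 measured) had a median of -0.17, against 0.05 in the control, and 37 of them had a negative difference. Kif11, Bub1, Ckap5 and Kif4, 4 genes that build or guard the spindle, were lower at an unadjusted p under 0.05, and 14 did not overlap. Over all genes, 2.66% were lower at that p and 11.9% did not overlap in that direction. Kif11, a spindle motor, gave 1074 and 872 in knockout MPPs against 698, 476 and 676, a difference of -0.61 ± 0.23. The 4 differences ran from -0.34 to -0.45 against MPP knockout array 2 alone and from -0.77 to -0.96 against array 1 alone. The count of 4 lower genes was smaller without array 1. The list median was -0.14 against array 1 alone and -0.21 against array 2 alone. Another probe set of Bub1 gave a difference of 0.16, and those of Kif11 gave -0.035 and -0.38, so these values depend on the probe set. Among 16 cell cycle inhibitors Cdkn1a (p21) gave 184 and 181 against 85.05, 135 and 105, and Cdkn1c (p57) gave 30.1 and 17.5 against values between 5.17 and 6.41. The 27 p53 target and apoptosis genes had a median of -0.01, with Apaf1 (0.86 ± 0.35) and Bid (0.56 ± 0.25) higher and Cdkn1a lower at an unadjusted p under 0.05. Medians of ribosomal protein genes (0.04) and oxidative phosphorylation genes (0.06) lay near that of all genes.

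Germline genes, many of which are silenced by promoter methylation, differed more between arrays of 1 knockout population than between the populations. Their summed signal was 2353 and 6342 in knockout MPPs and 1797, 7466 and 5649 in knockout myeloid progenitors, beside 483 to 623 on the control arrays of these populations. Tex19.1, a germ cell gene that restrains retrotransposons, gave 258 and 1015 in knockout MPPs and 193, 920.5 and 707 in knockout myeloid progenitors, against 3.09 to 6.57 on the control arrays of these populations. Trap1a, a tumor rejection antigen gene on the X chromosome, gave 187 and 1201 against 142, 814 and 799. Dazl, an RNA-binding protein of germ cells, gave 39.5 and 193 against 113, 483 and 150.0. MPP knockout array 1 and myeloid knockout array 1 were the low arrays for Tex19.1 and Trap1a. The differences were 0.01 ± 0.56, -0.03 ± 0.69 and 1.07 ± 0.57. The sign of the difference for Tex19.1 and Trap1a changed when single arrays were left out. Over 22 measured germline genes the median was 0.23, and it was 0.70 against MPP knockout array 1 alone and -0.14 against array 2 alone.

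Rhox5 and Brdt were the germline genes at an unadjusted p under 0.05, in opposite directions. Rhox5, a homeobox gene of the testis, gave 329 and 338 in knockout MPPs and 22.9, 199 and 147 in knockout myeloid progenitors, against at most 7.39 on the control arrays. Its MPP arrays were nearly equal and all myeloid values were lower, with a difference of -1.66 ± 0.50. Brdt, a bromodomain protein of the testis, gave 5.13 and 51.5 against 29.8, 136 and 115, which overlapped, a difference of 1.42 ± 0.53. Rpl39l, a testis copy of a ribosomal protein gene, gave 34.1 and 572 against 101, 862 and 856. Among 12 genes of DNA methylation and methyl-binding proteins 1 was lower at an unadjusted p under 0.05, the de novo methyltransferase gene Dnmt3b, with 792 and 509.5 against 378, 418 and 318. Its difference of -0.70 ± 0.31 stood beside -0.84 in the control. Dnmt1 itself differed by 0.27 ± 0.24. Of 20 imprinted genes, Slc22a18 (-1.01 ± 0.42) and Cdkn1c (-0.77 ± 0.28) were lower and Plagl1 (1.35 ± 0.57) higher at an unadjusted p under 0.05, and the list median was -0.19.

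The control arrays showed which population differences had a counterpart with Dnmt1 intact. The knockout and control comparisons share no array, but their arrays come from littermates, and same-numbered arrays of a population deviated together. Both comparisons also come from 1 fit, in which a gene has the same SE in both. A gene with a small SE can thus reach a small p in both more easily. Counts of genes with such a p in both genotypes are therefore not independent readings. Over all 8612 genes the differences had the same sign in 6332 (73.5%), and across genes, which are not independent replicates, Pearson's r was 0.73 and Spearman's rho 0.65. In the control 7 genes passed the threshold (0.0813%), 5 higher in myeloid progenitors (0.0581%) and 2 lower (0.0232%). An unadjusted p under 0.05 was found for 769 (8.93%), of which 407 were higher (4.73%) and 362 lower (4.2%). The count of 7 rested on single arrays. Without control MPP array 1 or control myeloid array 3 it was 0, without control myeloid array 2 it was 2, and without control MPP array 2 it was 186. A log2 difference beyond 1 was found for 279 genes in the knockout and 429 in the control.

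All 7 genes that passed in the control had the same sign in the knockout, and 6 of them had an unadjusted p under 0.05 there. They were Pklr, Tlcd4, Car1, Ermap and Mt2, higher in myeloid progenitors, and Cd74 and Igkv8-30, lower. Ermap was the gene without such a p, with an adjusted p of 0.894. The median size of these 7 differences was 2.86 in the control and 1.74 in the knockout. Cd74 was the exception in size, with the larger difference in the knockout, except without MPP knockout array 1. Of the 769 control genes, 751 (97.7%) had the same sign in the knockout and 271 (35.2%) also had an unadjusted p under 0.05. Their median size was 0.97 in the control and 0.61 in the knockout. Read the other way, 463 of the 484 knockout genes (95.7%) had the same sign in the control and 271 (56.0%) also had such a p, with median sizes of 0.95 in the knockout and 0.83 in the control. Sizes shrank in whichever genotype had not chosen the genes, so neither figure measures a loss of difference by itself.

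**Figure D5:**
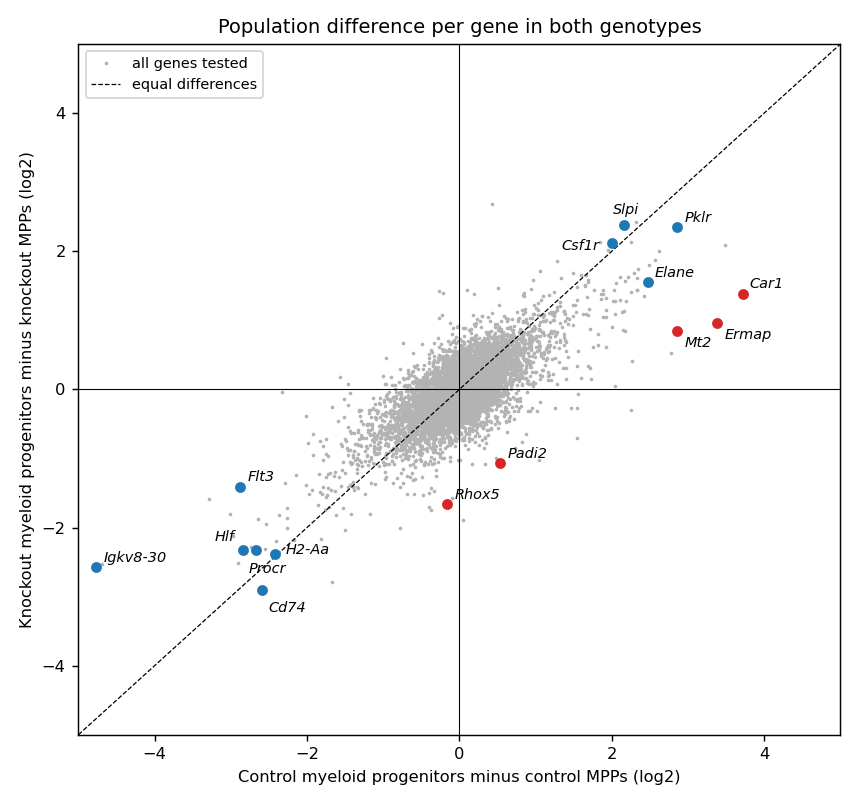
Difference between myeloid progenitors and MPPs (log2) in the control on the horizontal axis and in the knockout on the vertical axis, 1 point per gene, with the line of equal differences dashed. Pklr, Slpi, Cd74 and H2-Aa lie near the line, while Car1, Ermap, Mt2, Rhox5 and Padi2, in red, lie below it.

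No gene's population difference was shown to depend on genotype. The interaction passed the threshold for 0 genes (0.0%), and 42 genes (0.488%) had an unadjusted p under 0.05, 14 with a higher (0.163%) and 28 with a lower value in the knockout (0.325%). With the littermate pairs as a random block 212 genes had such a p (86 higher and 126 lower), with the pairs as a fixed block 190 did, and 0 passed adjustment in either fit. The median width of the 95% interval on each side of a gene's interaction was 0.98, before any adjustment over genes. Larger differences could miss the adjusted threshold, as Mt2 did at -2.005 (interval -3.02 to -0.99). Without MPP knockout array 2, 1 gene passed, Dgke, a diacylglycerol kinase gene. Padi2, which encodes an enzyme that turns arginine into citrulline in proteins, had opposite orders in the genotypes. It gave 171 and 171 in knockout MPPs and 54.1, 65.3 and 110.0 in knockout myeloid progenitors, but 73.8 and 69.8 in control MPPs and 105, 113 and 113 in control myeloid progenitors. The populations were apart in both genotypes, in opposite directions. The difference was -1.07 ± 0.37 in the knockout and 0.54 ± 0.37 in the control, and the interaction of -1.61 had a 95% interval from -2.73 to -0.49. Cox6a2, a subunit of cytochrome oxidase known from muscle, had a positive interaction of 1.37. Control MPPs gave 94.97 and 119 and knockout MPPs 69.0 and 39.2. Control myeloid progenitors gave 27.6, 22.2 and 26.4 and knockout myeloid progenitors 33.9, 47.65 and 57.0. The genotypes thus differed in both populations, in opposite directions.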

How the data were processed

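RNA of sorted cells was amplified with WT-Ovation Pico and labelled with biotin for Affymetrix arrays, per the labels' protocols. Each deposited value is a linear intensity of 1 probe set on 1 array. The authors' summary, background and scaling steps are not given in the sources used here. Here log2(intensity + 16) was taken and quantile normalized over 14 arrays. Of 22690 probe sets, 64 are controls, 20380 have 1 gene symbol in the platform annotation, 691 several and 1555 none. Entrez identifiers of 20351 matched the GRCm38.p6 gene table. Probe sets above the array's 40th percentile on at least 2 arrays were kept, and the brightest per gene was used.

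One limma fit (limma 3.58.1, R 4.3.3; mean-variance trend, 6 groups, degrees of freedom 8 residual and 5.40 prior at the median) gave all contrasts, two-sided, with Benjamini-Hochberg adjustment over 8612 genes. It was tested on simulated data. Figures used Python 3.11.15, numpy 2.4.6, pandas 2.3.3 and matplotlib 3.10.9. The number of arrays limits the precision.

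Same-numbered control and knockout arrays come from littermates, per the labels. Their deviations correlated within pairs (0.60 in MPPs; 0.20, 0.54 and 0.61 in myeloid progenitors; 0.46 in LT-HSCs). Pairs entered as a random block, and as a fixed block for the interaction.

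Genes named are the 6 per direction with the smallest p, 15 fixed markers, those that passed in the control, the 6 smallest interaction p, up to 4 per list and 7 genes of earlier interest. Members and lists were chosen with earlier results of these data known. Other genes, such as Itgax, Hoxa9, Sox4, Vpreb1, S100a9, Prg2, Ifitm1, Dgke, Klf1 and Tspan33, were named after their values were seen. Some fixed markers are not reported here.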

Additional observations from a re-analysis of the deposited data

Results flagged for a closer look

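Padi2 was singled out because the population difference runs in opposite directions in the genotypes on every array. The gene was also among the 6 with the smallest interaction p. The difference of the differences, knockout minus control, was -1.61. It was tested as an interaction and did not pass adjustment over all genes (unadjusted p 0.008, adjusted p 1.00, limma). Leaving out single arrays gave values between -1.84 and -1.47, all negative.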

How the results depend on the processing

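In the knockout comparison 0 genes passed the threshold, and this held under other constants before the logarithm, normalizations, filters, probe set rules and variance models, with smallest adjusted p between 0.0525 and 0.169 (limma). The count was 4 with the arrays compared alone, 1 without LT-HSC arrays, 1 with the replicate block by number, 1 with littermate pairs as a random block, and 0 to 4 over single arrays left out. Whether the same replicate numbers pair MPPs with myeloid progenitors could not be told from these arrays. Knockout deviations correlated at 0.31 for number 1 and -0.10 for number 2, and control deviations at -0.07 and -0.28. The deviations of 2 MPP arrays mirror each other, so these values are not separate checks. MPP array 2 and myeloid array 3 correlated at 0.39 in the knockout and 0.30 in the control. The gene in both blocked fits was Cd74, with an adjusted p of 0.0401 by number. The block by number gave 5 control genes and the random pairs 9, against 7, and no interaction passed under any block.

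The control count was 3 with 64 added before the logarithm, 13 with the arrays compared alone, 24 with the mean of probe sets, 37 without LT-HSC arrays and 0 to 186 over single arrays left out. Control genes with the same sign in the knockout numbered 7, or 2 of 2 at an adjusted p of 0.01, 52 of 52 at 0.1, and 0 to 179 over single arrays left out. Interactions past the threshold numbered 0 to 1 over single arrays left out. The cause was not tested.

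Over single arrays left out, signs changed among values that had not passed. These included the interactions of Cd74 (-1.04 to 0.43), Elane (-2.20 to 0.37) and Hlf (-0.15 to 1.17), among others, and the knockout differences of Kit (-0.51 to 0.27), Cd34 (-0.76 to 0.15), Gata1 (-0.70 to 0.33), Il7r (-1.03 to 0.25), Cox6a2 (-0.47 to 0.19), Epor (-0.65 to 0.10), Dnmt1 (-0.026 to 0.58), Tex19.1 (-0.92 to 0.93), Tex19.2 (-0.73 to 0.92), Trap1a (-1.29 to 1.22) and Rpl39l (-0.37 to 3.23). With the replicate block by number Kit was 0.013 and Tex19.1 was -0.063, and without normalization Tex19.1 was -0.029. Of the values of single genes and lists, 2326 kept their direction and side of the threshold, 30 were no longer past it, 7 came to pass it, and 39 list medians moved by more than 1 SD over pairs of single arrays. Signals below the added constant of 16 units are compressed by it, which limits the differences of dim genes.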
